A study of Homo sapiens with 12 samples.

Results

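The genes described here are PPARGC1A and 7 other regulators of mitochondrial biogenesis: the coactivators PPARGC1A, PPARGC1B and PPRC1, the nuclear receptors ESRRA and ESRRG, the transcription factors NRF1 and GABPA, and the mitochondrial DNA-binding factor TFAM. These 8 genes, of 33093 in the count table, were chosen by name around PPARGC1A, which was picked because its counts were lower after TNFα in wild-type cells. The values of PPARGC1A are therefore given as a description throughout, with no test. All 8 genes passed the filter on low counts. The 12 samples were HEK293T cells, a human embryonic kidney line that carries a viral large T antigen. They formed 4 groups of 3: wild-type (WT) and NFKB1 S80A cells, each without treatment and after 3 h in 10 ng/ml TNFα. In NFKB1 S80A cells the codon for serine 80 of the NF-κB subunit p50 was changed to alanine by CRISPR/Cas9 and a single-stranded template. They were grown from single edited cells, and how many clones were sequenced is not given in the sources used here, so the edit and what else sets a clone apart from WT cells cannot be told apart. A changed codon leaves no mark in counts per gene, so the counts could not check the edit.

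PGC-1α (PPARGC1A), PGC-1β (PPARGC1B) and PRC (PPRC1) bind no DNA themselves. They are recruited by transcription factors such as NRF1, GABPA and the estrogen-related receptors (ESRRA, ESRRG), which switch on nuclear genes for the respiratory chain, for mitochondrial ribosomes and for TFAM, and TFAM packages mitochondrial DNA and starts its transcription. PGC-1α is best known in brown fat, muscle, heart and liver, where cold, exercise and fasting raise it. PRC is the form that rises when serum stimulates cells to divide.

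On GRCh38, PPARGC1A lies on chromosome 4 (23755041 to 23904089, minus strand) and PPARGC1B on chromosome 5 (149730298 to 149855022, plus strand). PPRC1 (102132994 to 102150333, plus strand) and TFAM (58385345 to 58399220, plus strand) both lie on chromosome 10. ESRRA lies on chromosome 11 (64305497 to 64316743, plus strand), ESRRG on chromosome 1 (216503246 to 217137755, minus strand), NRF1 on chromosome 7 (129611720 to 129757082, plus strand) and GABPA on chromosome 21 (25734570 to 25772460, plus strand). Exons of ESRRA share up to 284 bp with TRMT112 and exons of GABPA up to 590 bp with ATP5PF, both on the opposite strand. The strand setting of the counting is not given in the sources used here, so reads of these overlaps may belong to either gene.

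RefSeq promoters of 300 bases (250 before to 50 from the start site, GRCh38.p14) were found for 7 of the 8 genes, in 15 windows, and none for NRF1. The 4 printed here are the 2 of PPARGC1A, the gene the choice was built on, and those of ESRRA and GABPA. The last 2 hold a core motif, that of NRF1 and that of GABP. All 4 are 5′ to 3′ on the strand of the gene, and capitals mark the motif.
PPARGC1A window 1 (chr4:24472856-24473155, minus strand): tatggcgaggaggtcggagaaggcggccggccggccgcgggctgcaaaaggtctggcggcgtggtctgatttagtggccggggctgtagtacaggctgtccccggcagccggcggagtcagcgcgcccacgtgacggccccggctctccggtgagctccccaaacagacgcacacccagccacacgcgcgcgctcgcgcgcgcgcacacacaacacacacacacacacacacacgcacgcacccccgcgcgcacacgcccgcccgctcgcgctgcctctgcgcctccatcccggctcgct
PPARGC1A window 2 (chr4:23881052-23881351, minus strand): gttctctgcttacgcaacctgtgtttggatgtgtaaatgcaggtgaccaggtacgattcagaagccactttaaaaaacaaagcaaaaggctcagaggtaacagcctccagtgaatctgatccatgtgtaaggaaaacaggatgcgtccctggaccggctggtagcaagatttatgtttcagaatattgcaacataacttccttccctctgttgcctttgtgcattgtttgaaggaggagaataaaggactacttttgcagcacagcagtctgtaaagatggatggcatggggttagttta
ESRRA (chr11:64305274-64305573, plus strand): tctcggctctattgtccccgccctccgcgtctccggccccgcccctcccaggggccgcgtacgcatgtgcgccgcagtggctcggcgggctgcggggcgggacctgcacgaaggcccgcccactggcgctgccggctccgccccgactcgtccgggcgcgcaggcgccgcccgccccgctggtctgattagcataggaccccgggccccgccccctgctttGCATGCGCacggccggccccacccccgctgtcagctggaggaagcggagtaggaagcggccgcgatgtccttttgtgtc
GABPA (chr21:25734722-25735021, plus strand): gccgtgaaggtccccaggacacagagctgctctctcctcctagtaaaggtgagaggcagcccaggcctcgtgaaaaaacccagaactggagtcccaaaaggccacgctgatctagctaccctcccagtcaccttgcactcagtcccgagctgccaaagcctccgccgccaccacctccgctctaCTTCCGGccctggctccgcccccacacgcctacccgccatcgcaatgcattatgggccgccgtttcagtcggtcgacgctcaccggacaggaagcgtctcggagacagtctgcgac
The 5 motifs searched on both strands were the NRF1 core GCATGCGC, the GABP core CCGGAAG, the estrogen-related receptor core AAGGTCA, the cyclic AMP response element core TGACGT and the NF-κB consensus given in the paper's introduction. The paper's own search for NF-κB sites used a position weight matrix over promoters and distal regions, and it was not repeated here. Neither window of PPARGC1A held any of the 5. The ESRRA window held the NRF1 core at −29 from the start site, as do 3.05% of 35116 promoters of that length. The GABPA window held the GABP core on the minus strand at −66 (read as CTTCCGG on the printed strand), as do 10.3% of promoters. Of the 8 windows of ESRRG, window 3 held the cyclic AMP core at −72 (7.98% of promoters) and window 6 the estrogen-related receptor core at −61 (3.92%). The NF-κB consensus was in none of the 15 windows and in 5.91% of all promoters. A match shows letters, not binding. Window 1 of PPARGC1A lies outside the gene's span in the annotation used for positions, and counts per gene cannot tell which start was used. That annotation holds 18 transcripts of PPARGC1A, and its 5′ end of the gene, 23904089, lies in neither window. Starts outside the 2 windows were not searched.

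Library totals ran from 15624878 to 20889577 counts, and 14383 genes were tested. The first principal component (34.5% of the variance) separated the genotypes. On the second (19.0%), S80A untreated replicate 2 lay at −39.0 and the other 11 samples between −11.7 and 23.1. GC-rich genes were low against GC-poor ones in S80A untreated replicate 2 (by 0.22 on the log2 scale, between the outer quartiles of GC content) and high in WT TNFα replicate 3 (by 0.24). Results that turn on either library are also given without it. The 10 HEK293 markers were all counted, but NEFM, a neurofilament subunit, averaged 1838 normalised counts in WT and 4.49 in S80A untreated cells. In untreated S80A cells NEFM was lower and KRT18 (0.46) and CDH2 (0.46) were higher (30%, beside 6.26% of all genes tested). The same 3 passed in treated cells (30%, beside 7.36%), with KRT18 at 0.60 and CDH2 at 0.45. Averaged over treatments 3 of the 10 were higher and 2 lower (50%, beside 16.7%). Of 6 known NF-κB targets, NFKBIA among them, TNFα raised 5 past the threshold in WT cells and 6 in S80A cells. Of 22 listed markers of muscle, fat, liver and blood cells, 9 had 0 counts in every sample (MYH6, TNNT2, CIDEA, ADIPOQ, FABP4, G6PC, PTPRC, CD3E and HBB). The 2 that passed the filter were ACTA1, an actin of skeletal muscle (4 to 15 counts per sample), and PLIN1, which coats lipid droplets (5 to 21), and the other 11 had at most 9 counts in any sample. The 22 summed to 34.2 to 44.3 normalised counts in untreated WT, 27.7 to 57.1 in treated WT, 29.7 to 40.8 in untreated S80A and 34.2 to 46.1 in treated S80A samples.

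Per kilobase of annotated exon, the 8 genes were ordered as follows over the 12 samples. TFAM (38.0 ± 6.51 CPM per kilobase, SD, n = 12) and PPRC1 (29.3 ± 5.40) were highest, and their ranges overlapped (31.1 to 50.1 against 16.98 to 36.2). ESRRA (9.81 ± 0.625), NRF1 (8.75 ± 0.815) and GABPA (8.32 ± 0.865) followed, with ranges that overlapped (8.91 to 11.1, 6.97 to 9.74 and 7.002 to 9.86). With the length of the longest transcript in place of all exons, ESRRA (12.1 to 15.03) lay above NRF1 (8.05 to 11.2) and GABPA (7.69 to 10.8) in all samples, and the last pair still overlapped. PPARGC1B stood at 3.20 ± 0.474. PPARGC1A (0.159 ± 0.0644) and ESRRG (0.155 ± 0.0452) were lowest, and their order differed between groups. ESRRG was the higher of the pair in untreated WT (0.195 ± 0.0277 against 0.143 ± 0.00870, SD, n = 3) and treated WT cells (0.182 ± 0.0388 against 0.0680 ± 0.00798), and the lower in untreated S80A (0.143 ± 0.0201 against 0.219 ± 0.0305) and treated S80A cells (0.1005 ± 0.0185 against 0.206 ± 0.0176). The values of the pair overlapped in none of the 4 groups. By the longest transcript the mean of ESRRG over all samples (0.306) came above that of PPARGC1A (0.274). Among the coactivators of these cells PPRC1 was the most abundant per kilobase and PPARGC1A the least.

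**Figure D1:**
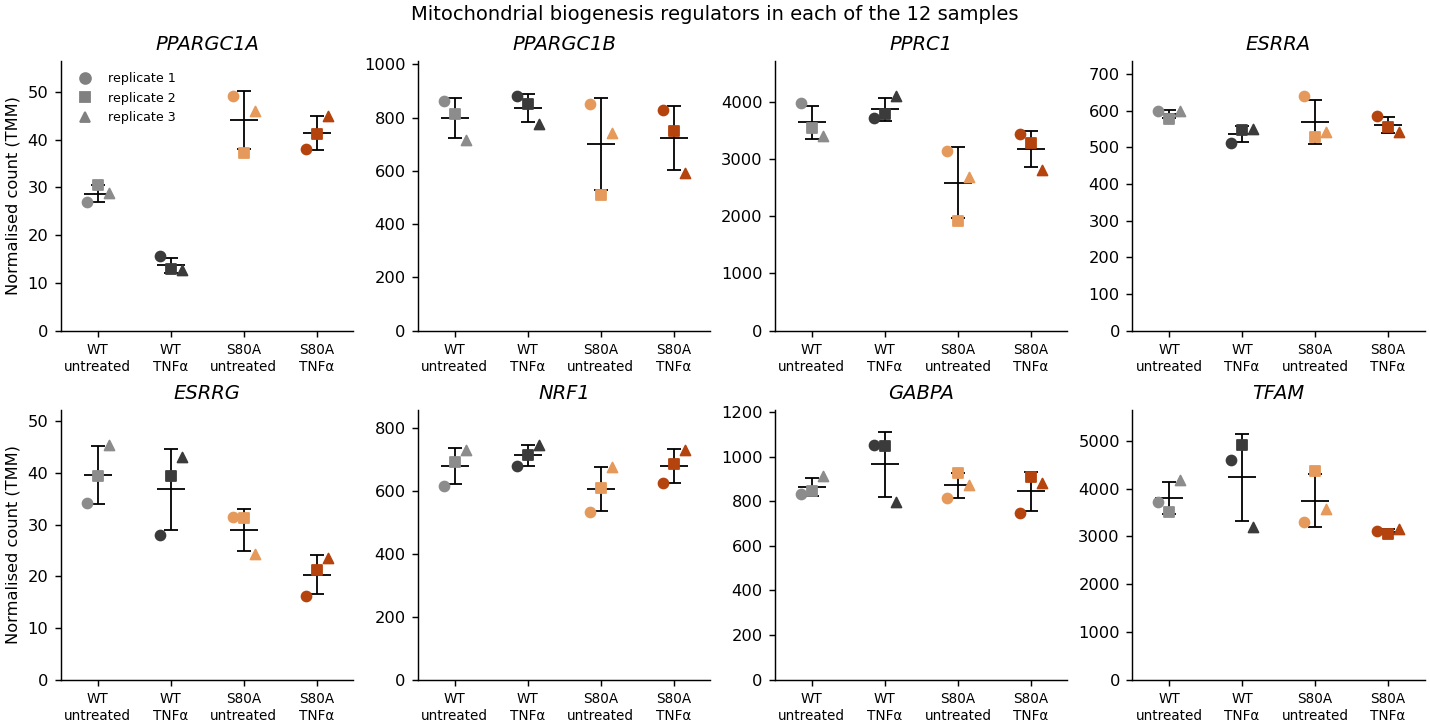
Normalised count (counts scaled by TMM to the mean library) of each gene in each of the 12 samples, by group; symbols mark replicates 1 to 3, and bars give the mean and SD of 3 samples. PPARGC1A in the 3 WT TNFα samples sits between 12.7 and 15.6, under all other samples, and every y axis starts at 0.

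PPARGC1A was measured at 26.9, 30.4 and 28.9 normalised counts in untreated WT cells and at 15.6, 12.8 and 12.7 in TNFα-treated WT cells. In S80A cells it was measured at 49.1, 37.2 and 46.0 untreated and at 38.0, 41.3 and 45.1 with TNFα. The 3 TNFα-treated WT samples were the lowest of the 12, all 6 S80A samples lay above all 6 WT samples (8.84% of genes tested had no overlap between these), and the treated and untreated S80A samples overlapped. The log2 difference with TNFα was −1.07 (SE 0.22) in WT cells, which is the value that chose the gene, and −0.10 (SE 0.18) in S80A cells. The difference of these differences, which contains the WT value that chose the gene, was 0.96 (SE 0.28). These rest on few reads. The summed counts of 3 samples were 88 (95% exact Poisson interval 70.6 to 108) in untreated WT cells, 41 (29.4 to 55.6) in treated WT cells, 137 (115 to 162) in untreated S80A cells and 119 (98.6 to 142) in treated S80A cells, and such intervals cover counting error only.

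Between untreated S80A and WT cells PPARGC1A differed by 0.62 on the log2 scale (SE 0.18), with the S80A samples above. The groups did not overlap, which holds for 25.0% of all genes tested. This comparison shares the untreated WT samples with the one that chose the gene. Without S80A untreated replicate 2, where PPARGC1A was lowest of its group, the difference was 0.72. Between TNFα-treated S80A and WT cells, which share the treated WT samples with the choice, PPARGC1A differed by 1.59 (SE 0.21).

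PPRC1 was lower in S80A cells. It was measured at 3970, 3546 and 3407 normalised counts in untreated WT cells and 3724, 3778 and 4096 in treated WT cells, against 3148, 1921 and 2689 in untreated S80A cells and 3428, 3277 and 2816 in treated S80A cells. All S80A samples lay under all WT samples within each condition, which holds in either direction for 25.0% of all genes tested in untreated and 26.2% in treated cells. Averaged over treatments, PPRC1 was lower in S80A cells by a log2 difference of −0.39 (SE 0.10, adjusted p = 0.0133, edgeR quasi-likelihood test with Benjamini-Hochberg adjustment). The tested genes of its chromosome, 10, had a median of −0.20 in the same average. An exact two-sided permutation of PPRC1 in 6 against 6 samples within treatment gave p = 0.005, the smallest that its 400 arrangements allow. In untreated cells the difference was −0.49 (SE 0.14, edgeR adjusted p = 0.0482). In treated cells it was −0.28 (SE 0.14) and did not pass (edgeR adjusted p = 0.242). S80A untreated replicate 2 held the lowest value. Without it the untreated difference was −0.32 (adjusted p = 0.0647), the treated one −0.29 (adjusted p = 0.0464, with the spread re-estimated) and the average −0.30 (adjusted p = 0.00424). Over the 12 fits that left out 1 sample each, PPRC1 passed the untreated comparison in 2 and the averaged one in all 12.

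PPARGC1B, the closest relative of PPARGC1A, was measured at 863, 813 and 717 normalised counts in untreated WT cells and 880, 850 and 776 in treated WT cells. In S80A cells the values were 850, 511 and 741 untreated and 830, 748 and 593 treated, and the groups overlapped in both conditions. The genotype difference was −0.18 (SE 0.16, edgeR adjusted p = 0.577) in untreated and −0.21 (SE 0.16, edgeR adjusted p = 0.494) in treated cells. Without S80A untreated replicate 2 the untreated difference was −0.0022.

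Among the receptors that recruit PGC-1α, ESRRG was lower in S80A cells and ESRRA passed no comparison. ESRRG had 34.2, 39.4 and 45.4 normalised counts in untreated WT cells and 28.02, 39.5 and 43.1 in treated WT cells. It had 31.5, 31.2 and 24.3 in untreated S80A cells and 16.3, 21.2 and 23.6 in treated S80A cells. Neither pair of genotype groups overlapped, as for 25.0% of all genes tested in untreated and 26.2% in treated cells. In treated cells the difference was −0.87 (SE 0.24, edgeR adjusted p = 0.0427), in untreated cells −0.46 (SE 0.22, edgeR adjusted p = 0.279), and averaged −0.66 (SE 0.16, edgeR adjusted p = 0.0123). The exact two-sided permutation within treatment gave p = 0.005, again the smallest allowed. The summed counts were 121 (95% exact Poisson interval 100 to 145), 111 (91.3 to 134), 88 (70.6 to 108) and 58 (44.04 to 75.0) in the order given. In treated cells ESRRG passed in 3 of the 12 fits that left out 1 sample (adjusted p 0.0340 to 0.168), and without WT TNFα replicate 3 the difference was −0.74 (adjusted p = 0.0974). The averaged call held in all 12.

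ESRRA, which with PGC-1α drives genes of oxidative phosphorylation, kept the narrowest range of the 8, with its highest sample 1.25 times its lowest. Its values were 598, 578 and 598 in untreated WT, 513, 547 and 550 in treated WT, 639, 527 and 542 in untreated S80A, and 585, 556 and 541 normalised counts in treated S80A cells. All genotype groups overlapped, and the averaged difference was 0.0049 (SE 0.063, edgeR adjusted p = 0.972).

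NRF1 and GABPA bind promoters of respiratory chain genes and did not pass the threshold in any genotype comparison. NRF1 was measured at 616, 690 and 729 normalised counts in untreated WT cells, 678, 714 and 744 in treated WT cells, 533, 609 and 674 in untreated S80A cells and 623, 685 and 729 in treated S80A cells. Its averaged difference was −0.12 (SE 0.072, edgeR adjusted p = 0.317), and the groups overlapped. GABPA was measured at 834, 845 and 912 in untreated WT cells, 1050, 1048 and 796 in treated WT cells, 815, 925 and 872 in untreated S80A cells and 746, 907 and 880 normalised counts in treated S80A cells. WT TNFα replicate 3 lay apart from the other 2 samples of its group. With all samples the treated difference was −0.19 (SE 0.11, edgeR adjusted p = 0.339), and without that replicate −0.31 (adjusted p = 0.0614).

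TFAM, the most abundant of the 8 per kilobase, showed the same split among treated WT samples. It was measured at 3713, 3510 and 4171 normalised counts in untreated WT cells and 4601, 4906 and 3204 in treated WT cells. In S80A cells it was measured at 3297, 4370.5 and 3577 untreated and 3111, 3043 and 3149 treated. All 3 treated S80A samples lay under all 3 treated WT samples (26.2% of all genes tested had no overlap there), while the untreated groups overlapped. The treated difference was −0.45 (SE 0.14) and did not pass (edgeR adjusted p = 0.0640), and the untreated one was −0.02 (SE 0.14, edgeR adjusted p = 0.957). Without WT TNFα replicate 3 the treated difference was −0.61 (adjusted p = 0.00513), and with each library corrected for its GC trend −0.27 (SE 0.072, adjusted p = 0.0349). Averaged over treatments it was −0.23 (SE 0.097, edgeR adjusted p = 0.121), and without WT TNFα replicate 3 −0.32 (edgeR adjusted p = 0.0106). Without S80A untreated replicate 2 the treated difference was −0.45 (edgeR adjusted p = 0.0214) and the averaged one −0.29 (edgeR adjusted p = 0.0251). The transcript of TFAM has the lowest GC content of the 8 (36.0%), followed by GABPA (36.7%), and that of ESRRA the highest (64.2%). In WT TNFα replicate 3 TFAM deviated from its group mean by −0.38 on the log2 scale and GABPA by −0.27. In S80A untreated replicate 2 TFAM deviated by 0.23, PPRC1 (56.7% GC) by −0.40 and PPARGC1B (50.5%) by −0.42. PPARGC1A (40.5% GC) deviated there by −0.22 and ESRRG (38.4%) by 0.11. What part of these deviations follows GC content was not tested gene by gene.

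**Figure D2:**
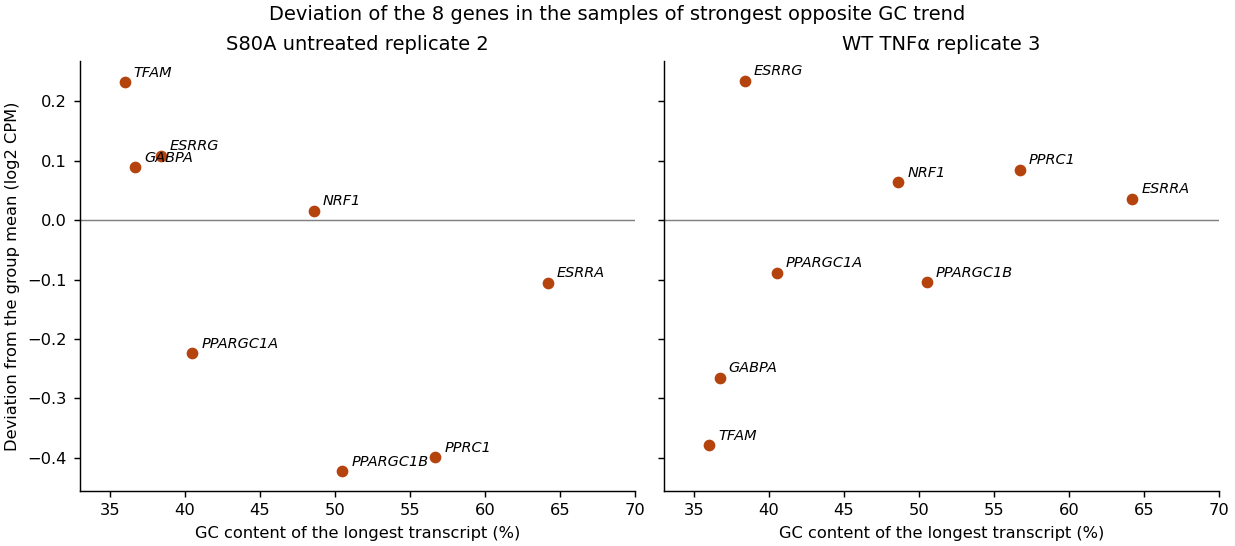
Deviation of each gene from the mean of its group (log2 CPM, vertical axis) against the GC content of its longest transcript (%, horizontal axis) in the samples with the most negative and the most positive GC trend. TFAM sits at 0.23 in S80A untreated replicate 2 and at −0.38 in WT TNFα replicate 3.

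Over the 7 genes other than PPARGC1A, the threshold was passed by 1 (PPRC1, lower) in untreated cells, beside 6.26% of all genes tested (4.21% lower), by 1 (ESRRG, lower) in treated cells, beside 7.36% (4.44% lower), and by 2 (PPRC1 and ESRRG, both lower) in the average, beside 16.7% (9.47% lower). The median log2 genotype difference of the 7 was −0.16 in untreated and −0.21 in treated cells, and that of all genes tested 0.013 and −0.0037. In the comparison that chose PPARGC1A, TNFα in WT cells, 0 of the other 7 passed, beside 0.688% of all genes. Their log2 differences ran from −0.14 (ESRRA) to 0.16 (GABPA and TFAM), each with a standard error of 0.089 to 0.22. Without WT TNFα replicate 3 they ran from −0.23 (ESRRG, SE 0.24) to 0.32 (TFAM, SE 0.11), with GABPA at 0.28 (SE 0.096), and again 0 passed. In S80A cells, where 1.26% of genes passed, 0 of the 7 did. There the largest were ESRRG at −0.51 (SE 0.25), PPRC1 at 0.29 (SE 0.14) and TFAM at −0.27 (SE 0.14), and without S80A untreated replicate 2 they were −0.46, 0.12 and −0.15. For the difference between the genotypes in their response to TNFα, 0 of 14383 genes passed in edgeR and 0 in DESeq2, and 520 had an unadjusted edgeR p under 0.05. TFAM had a difference of −0.43 (SE 0.19) and ESRRG of −0.41 (SE 0.33). Without WT TNFα replicate 3 these were −0.59 and −0.28, and without S80A untreated replicate 2 they were −0.31 and −0.37.

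**Figure D3:**
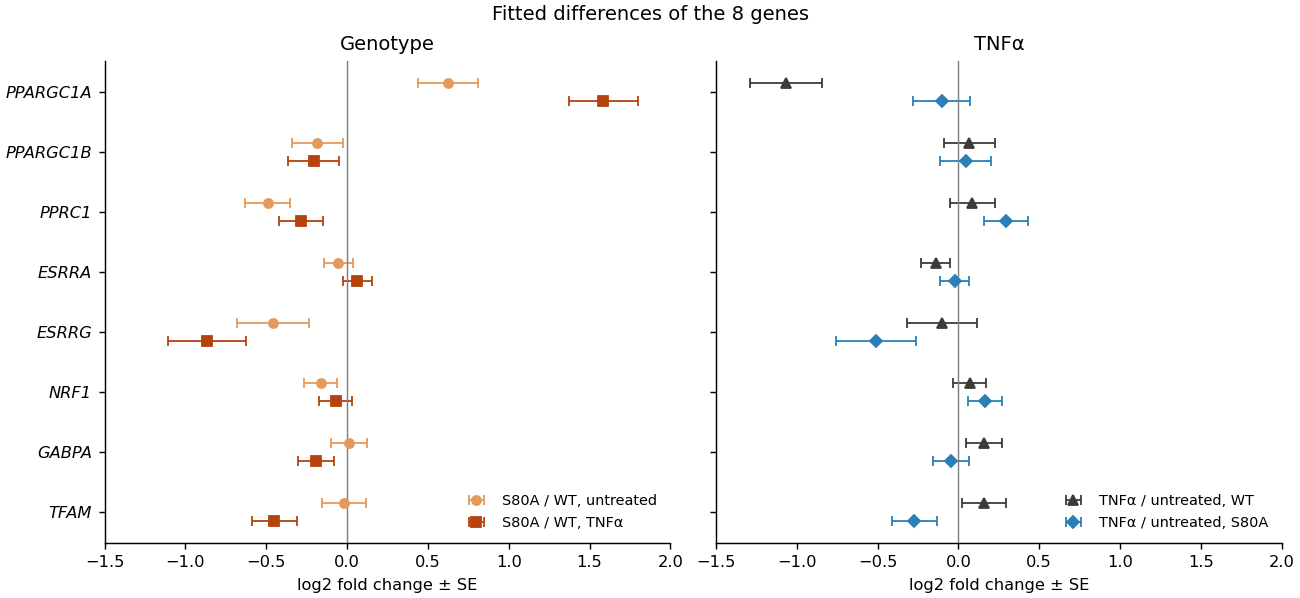
Fitted log2 fold change ± SE of the 8 genes for S80A against WT cells (left, untreated and TNFα-treated) and for TNFα against untreated cells (right, WT and S80A), 3 samples a group. PPRC1 and ESRRG lie under 0 in both genotype comparisons; PPARGC1A was chosen for its value in WT cells at right.

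Chromosome 10, which holds PPRC1 and TFAM, and chromosome 17 stood apart in S80A cells. The 547 tested genes of chromosome 10 had a median log2 difference between S80A and WT of −0.19 in untreated and −0.24 in treated cells, the 818 genes of chromosome 17 one of −0.31 and −0.26, and the other autosomes medians between −0.06 and 0.13 in untreated and −0.16 and 0.09 in treated cells. Together they hold 9.90% of the tested genes that have a chromosome, and 54.7% of the genes that were lower in untreated and 47.3% of those lower in treated S80A cells. Within 5 Mb on each side of PPRC1, 79 of 95 tested genes were below 0 in the untreated comparison, with a median of −0.20, and 11 of them lay further below than PPRC1. In treated cells 67 of the 95 were below 0, with a median of −0.18, and 28 lay further below than PPRC1. Around TFAM, 15 of 18 neighbours were below 0 in treated cells, with a median of −0.26 against −0.45 for TFAM. In untreated cells 11 of the 18 were below 0, with a median of −0.015 against −0.020 for TFAM. For TNFα in S80A cells the median of these neighbours was −0.26 against −0.27 for TFAM. The neighbours of ESRRG had a median of 0.06 in the averaged comparison, and 0 of its 35 neighbours lay as far below 0 as ESRRG. Around PPARGC1A, 15 neighbours had a median of 0.03 in the averaged comparison. The part of chromosome 10 in the lower level of PPRC1 and in the values of TFAM, which passed no genotype comparison in the main fit, was not tested. These chromosomes were looked at after the values were seen.

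**Figure D4:**
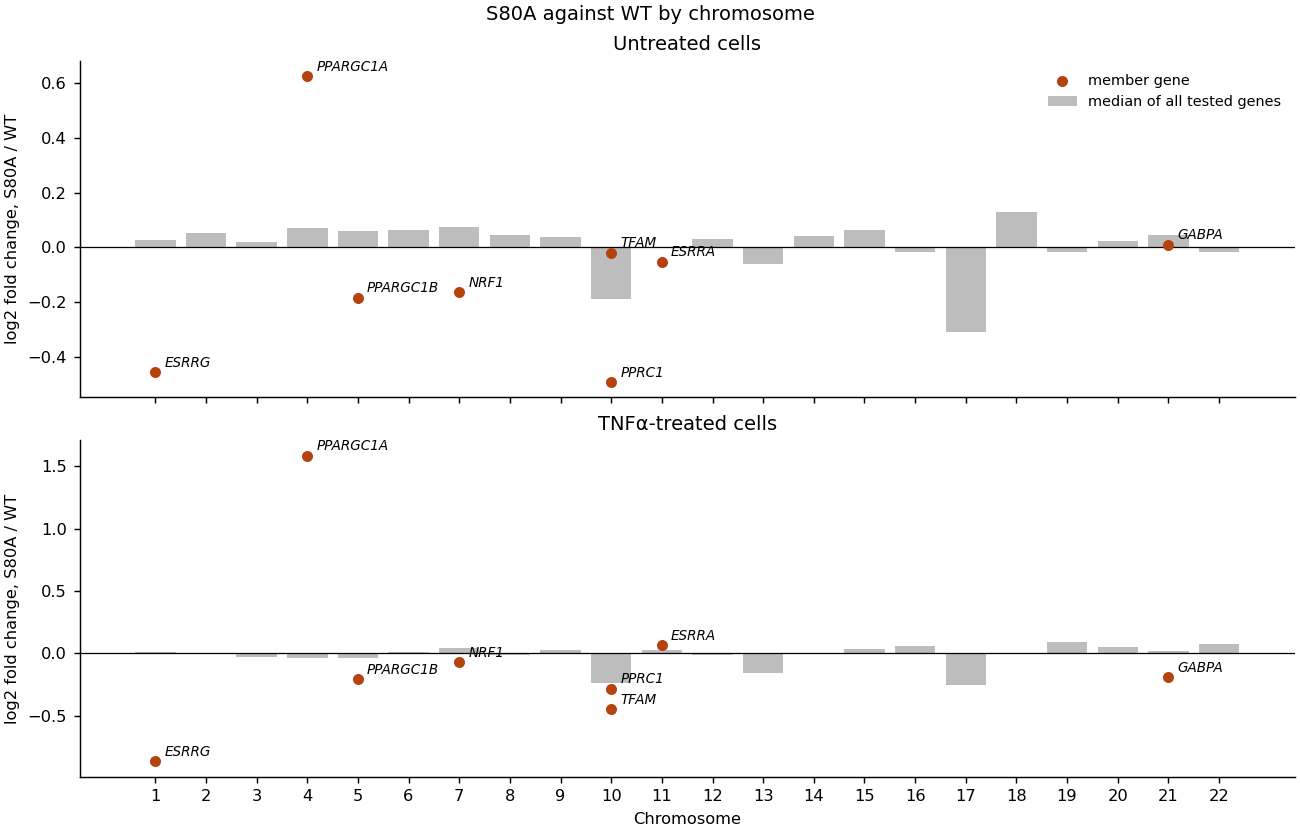
Median log2 fold change of all tested genes on each autosome (grey bars) and of the 8 genes (points) for S80A against WT, in untreated (top) and TNFα-treated cells (bottom), with different vertical scales. The bars of chromosomes 10 and 17 are the lowest, at −0.19 and −0.31 in untreated cells.

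Beyond the 8 genes, 12 lists around the same pathway held 308 tested genes. In untreated cells 12 of them (3.9%, beside 4.21% of all genes tested) were lower and 1 was higher in S80A cells. In treated cells 14 (4.55%, beside 4.44%) were lower and 4 higher, and averaged over treatments 32 (10.4%, beside 9.47%) were lower and 7 higher, so the shares of lower genes lay near those of all genes. Without S80A untreated replicate 2, 26 (8.44%, beside 4.36% of all genes) were lower and 1 higher in untreated cells, with 21 of the 26 on chromosomes 10 and 17, and 28 (9.09%, beside 6.73%) were lower and 6 higher in treated cells, with 19 of the 28 there. Of the 33 that lie on chromosomes 10 (11 genes) and 17 (22 genes), 10 were among the 12 lower ones in untreated cells and 10 among the 14 in treated cells. On these chromosomes the medians of the list genes were −0.26 and −0.37 in untreated cells, and 32 of the 33 were below 0. Of the 275 on other chromosomes 138 were below 0, with a median of −0.0013. Of the 32 lower in the average, 22 lie on chromosomes 10 and 17. Over all genes tested, the share that passed in either direction was 6.26% in untreated cells, 7.36% in treated cells and 16.7% in the average.

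Of 30 genes that signal to the PGC-1 coactivators, 2 (6.67%, beside 6.26% of all genes) were lower and 0 higher in untreated S80A cells, and 2 (beside 7.36%) were lower in treated cells. In untreated cells these were FLCN (−0.51), folliculin, which restrains PGC-1α expression, and KAT2A (−0.50), the acetyltransferase GCN5 that inhibits PGC-1α, both on chromosome 17. In treated cells KAT2A (−0.35) and MEF2C (−0.75), a factor that binds the PPARGC1A promoter in muscle, were lower. TFE3, a transcription factor of lysosomal genes, rose with TNFα in S80A cells (0.53, edgeR adjusted p = 0.000996). It was 1 of the 30 there (3.33%, beside 1.26% of all genes), and in WT cells 0 of the 30 passed with TNFα (beside 0.688%).

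Of 25 partner factors and cofactors, 3 were lower and 1 higher in untreated S80A cells (16% of the list, beside 6.26% of all genes). SREBF1 (−0.55), a regulator of lipid synthesis, and THRA (−0.43), a thyroid hormone receptor, lie on chromosome 17, and MYC (−0.43), a factor that itself raises mitochondrial genes, on chromosome 8. ESRRB, the third estrogen-related receptor, was higher (0.64, edgeR adjusted p = 0.0433), and ESRRG had −0.46 there without passing (edgeR adjusted p = 0.279). In treated cells THRA (−0.47) and MYC (−0.39) were lower and ESRRB (0.84) and RXRA (0.44), the common partner of nuclear receptors, higher (again 16%, beside 7.36%). With TNFα 1 of the 25 passed in each genotype (4%, beside 0.688% of all genes in WT and 1.26% in S80A cells). RXRA fell in WT cells (−0.41) and SREBF1 rose in S80A cells (0.39).

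Of 20 genes that maintain or transcribe mitochondrial DNA, 1 (5%, beside 6.26% of all genes) was lower in untreated S80A cells, the mitochondrial helicase TWNK (−0.40, counted under its older symbol C10orf2, chromosome 10). In treated cells 3 (15%, beside 7.36%) were lower: the elongation factor TEFM (−0.63) and the polymerase subunit POLG2 (−0.37) on chromosome 17, and the nuclease DNA2 (−0.33) on chromosome 10. The 20 genes had a median of −0.09 in untreated and −0.10 in treated cells.

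Respiratory chain subunits did not pass the threshold between genotypes within a condition, apart from 1 of ATP synthase. Of complex I 0 of 37 subunits passed the threshold in untreated and in treated cells, beside 6.26% and 7.36% of all genes. Of complexes II and III and cytochrome c 0 of 14 passed in either, and of complex IV 0 of 12. The medians of these lists lay between 0.02 and 0.07. Averaged over treatments, 16.7% of all genes passed (7.2% higher). There 1 of 37 complex I subunits was higher in S80A cells, NDUFS4 (0.24, 2.70% of the list). Of the 14 of complexes II and III and cytochrome c 1 was higher, UQCRC1 (0.18, 7.14%), and of complex IV 0 of 12 passed. Of 15 ATP synthase subunits 1 (6.67%, beside 6.26% of all genes) was lower in untreated S80A cells, ATP5MC1 (counted as ATP5G1, −0.51, chromosome 17), and 0 in treated cells. In the average 2 of the 15 were lower (13.3%, beside 16.7% of all genes), ATP5MC1 (ATP5G1, −0.41) and ATP5F1C (counted as ATP5C1, −0.31, chromosome 10). With TNFα in WT cells 33 of 37 complex I and 15 of 15 ATP synthase subunits lay below 0, with medians of −0.05 for both lists. In S80A cells 24 and 9 did, with medians of −0.02 and −0.03. Of complex IV 10 of 12, and of complexes II and III and cytochrome c 10 of 14, lay below 0 in each genotype. The median of all genes tested was 0 in WT and −0.0019 in S80A cells. In these 4 lists 0 passed the threshold with TNFα, beside 0.688% of all genes in WT and 1.26% in S80A cells. These counts were not repeated without WT TNFα replicate 3.

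The mitochondrial ribosome list was taken by symbol. Of its 77 tested rows, 2 of which are the pseudogenes MRPL45P2 and MRPS31P5 that passed in no comparison, 4 (5.19%, beside 6.26% of all genes) were lower in untreated S80A cells: MRPS25 (−0.58), MRPS7 (−0.49), MRPL38 (−0.44) and MRPL10 (−0.35), of which the last 3 lie on chromosome 17. In treated cells 4 (beside 7.36%) were lower, MRPS25 (−0.51), MRPS7 (−0.46), MRPL45 (−0.39) and MRPS16 (−0.29). Of 30 genes of the citrate cycle and fatty acid oxidation 0 passed in untreated cells, and in treated cells (6.67%, beside 7.36%) the carnitine transferase CPT1C (−0.72) was lower and the acyl-CoA dehydrogenase ACADL (0.66) higher. Of 13 tested antioxidant and uncoupling genes 0 passed in untreated cells (beside 6.26%) and 2 in treated cells (15.4%, beside 7.36% of all genes). In treated cells the peroxiredoxin PRDX3 (−0.53, chromosome 10) was lower and the thioredoxin reductase TXNRD2 (0.35) higher. Of 10 fusion and fission genes 1 (10%, beside 6.26% and 7.36%) was lower in untreated and in treated cells, the protease YME1L1 (−0.27 and −0.36, chromosome 10). Of 25 protein import genes 0 passed in either. UCP1, the uncoupling protein of brown fat and a known target of PGC-1α, was not among the genes tested. In the average, where 16.7% of all genes passed, 10 of the ribosome rows were lower and 1 higher (14.3%), 6 of the citrate cycle and fatty acid oxidation genes were lower and 1 higher (23.3%), and 5 of the partner factors were lower and 2 higher (28%). With TNFα 0 genes of these mitochondrial lists passed in either genotype, beside 0.688% of all genes in WT and 1.26% in S80A cells. Whether a lower level of a transcript came from fewer cells of a kind or from less RNA per cell cannot be told apart in bulk samples.

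Across the 12 samples, the genes whose log2 CPM followed PPARGC1A most closely, among 13057 with a mean of at least 1 CPM, were RTN4R (Pearson r = 0.96), NAT8L (0.95), NUDT14 (0.94) and RNF215 (0.93). Those that ran most opposite to it were GOSR1 (−0.97), ABI1 (−0.95), LOC102724252 (−0.93) and MCM10 (−0.93), of which GOSR1 lies on chromosome 17 and ABI1 and MCM10 on chromosome 10. The samples share 2 genotypes and 2 treatments, and these values are a description. Of the other 7 genes, ESRRA had r = 0.34 with PPARGC1A, and the remaining 6 had values between −0.61 (PPRC1) and −0.39 (PPARGC1B). Taken around the 4 group means the values were nearer 0, at 0.53 for RTN4R, 0.65 for NAT8L, 0.19 for NUDT14 and 0.38 for RNF215, and −0.70 for GOSR1, −0.80 for ABI1, −0.55 for LOC102724252 and −0.79 for MCM10. The other 7 genes then ran from −0.20 (TFAM) to 0.38 (PPARGC1B).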

How the data were processed

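RNA was sequenced by the authors from 3 samples in each of 4 groups, which the paper calls independently generated (polyA selection with a stranded kit, single-end 75 bp reads). Reads were aligned to GRCh38 with HISAT and counted per gene symbol with HTSeq-count; versions, strand setting and counting mode are not given in the sources used here. The deposited values used here are raw counts. The authors' 2 lists of differentially expressed genes hold their own fold changes, p-values and scaled counts and were not used. Of 33121 rows, 28 whose symbols had been turned into dates (at most 0.233% of a library's counts) were left out, and 11042 of the 33093 kept were at 0 in all samples. Samples were grouped by their labels; the description of the third TNFα-treated WT sample repeats that of the second, and its title, which numbers it as the third, was used.

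Counts were fitted in R 4.3.3 with edgeR 4.0.16: filterByExpr (minimum count 10; 14383 genes), TMM, and 1 quasi-likelihood model over all 12 samples with a mean per group. P-values were adjusted by Benjamini-Hochberg over all tested genes, with a threshold of 0.05, and the standard error is the log2 fold change divided by the square root of F. Normalised counts are counts scaled by TMM to the mean library size, and log2 CPM used a prior count of 2. Library totals of 15624878 to 20889577 make counting error small except for PPARGC1A and ESRRG (13 to 53 and 18 to 44 counts per sample). Tested on simulated data (S80A against WT in treated cells, 14383 genes, 200 changed), the fit recovered 84% of genes changed by 1 on the log2 scale and 95% of those changed by 2, and 6.28% of its calls were false. The simulated spread followed the trend over all genes, with no GC trend in any library. Changes smaller than 1 on the log2 scale were not simulated, so these shares do not describe smaller differences.

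The 8 genes and all lists were chosen with earlier results of these data known. All 8 are named. In each list the named genes are those past the threshold, at most the 4 largest in each direction, and for likeness the 4 most positive and 4 most negative correlations with PPARGC1A. In the averaged comparison list genes were given as counts and named only for the respiratory chain and ATP synthase. The listed muscle, fat, liver and blood markers were used only to check the cell type. The 13 mitochondrially encoded genes had 0 rows in the count table under the symbols searched, so they could not be analysed here. Positions came from GENCODE v44 and promoters from RefSeq, both GRCh38. Chromosomes of 13793 tested genes (95.9%) and GC content of 12716 (88.4%) were matched by symbol. Replicate numbers were checked, and the main fit did not treat samples of the same number as pairs. Beside the main fit, the count tables were analysed with the DESeq2 1.42.0 test, scaled by DESeq2 size factors or by totals, filtered to 10 or more counts in each sample or not at all, fitted with replicate as a block or with just the 2 groups in question, and reduced by each sample in turn. A correction for GC content, alone or with the block, and the comparison by chromosome were chosen after seeing the data. Tables and figures used Python 3.11.15, pandas 2.3.3 and matplotlib 3.10.9.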

Additional observations from a re-analysis of the deposited data

How the results depend on the processing

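The averaged genotype differences of PPRC1 and ESRRG kept their direction and their side of the threshold under all alternatives tried. PPRC1 in untreated cells missed the threshold with total counts (adjusted p = 0.0908), with 10 or more counts in every sample (0.0526) and with only the samples compared (0.143), and ESRRG in treated cells with the DESeq2 test (0.0658), only the samples compared (0.0600), the GC correction (0.0868) and the GC correction with replicate block (0.0690). TFAM in treated cells passed with the DESeq2 test (0.0351), without a filter (0.00987), with only the samples compared (0.0334) and with the GC correction alone (0.0349) or with the block (0.0345); averaged, it passed without a filter (0.0436) and with the GC correction alone (0.0133) or with the block (0.0141). The cause was not tested.

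Over the 7 genes other than PPARGC1A, the count past the threshold in untreated cells, 1, was 0 with total counts, with 10 or more counts in every sample and with only the samples compared, and in treated cells, 1, was 2 without a filter. Genes past the threshold numbered 456 in untreated cells and 71 for TNFα in S80A cells with only the samples compared, 161 for TNFα in WT cells with DESeq2, and 1544, 1593 and 277 in untreated cells, treated cells and for TNFα in S80A cells with the GC correction and the block. Whether samples of the same replicate number belong together is not given by the labels. Of 18 same-numbered pairs of samples 9 had correlated deviations above 0.1 (mean 0.12, range −0.10 to 0.49). Pairs with different numbers had a mean of −0.059. The replicate block gave 1233, 1469, 2857, 113, 208 and 0 genes, beside 900, 1058, 2398, 99, 181 and 0 in the main fit. The order is untreated, treated, averaged, TNFα in WT, TNFα in S80A and interaction.

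Signs near 0 turned. With the GC correction, alone and with the block, GABPA was −0.0875 and −0.0868 in untreated cells, 0.0960 and 0.0937 for TNFα in S80A cells and 0.0506 and 0.0468 in the interaction, and ESRRA −0.0621 and −0.0630 in treated cells, −0.0381 and −0.0390 averaged and −0.0480 and −0.0480 in the interaction. Without a filter the averaged ESRRA was −0.0019. Leaving out 1 sample at a time, the differences in untreated cells ran from −0.14 to 0.00076 for ESRRA, −0.031 to 0.056 for GABPA and −0.14 to 0.065 for TFAM, and the averaged one of ESRRA from −0.041 to 0.032. For TNFα in WT cells they ran from −0.0060 to 0.13 for PPARGC1B and −0.23 to 0.060 for ESRRG, and in S80A cells from −0.14 to 0.20 for PPARGC1B, −0.077 to 0.068 for ESRRA and −0.094 to 0.039 for GABPA. The interaction of PPARGC1B ran from −0.20 to 0.14.

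With 1 sample left out, genes past the threshold numbered 356 (without WT untreated replicate 2) to 1039 (without S80A untreated replicate 2) in untreated, 434 (without WT TNFα replicate 2) to 1646 (without S80A untreated replicate 2) in treated cells, 65 to 145 for TNFα in WT and 98 to 193 in S80A cells. The 7 genes other than PPARGC1A among them numbered 0 to 1, 0 to 3 (3 without S80A untreated replicate 2), 0 and 0, and 2 to 3 in the average. Depth limits PPARGC1A and ESRRG most, the 2 genes with under 60 counts in every sample.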
